A study of Mus musculus with 32 samples.

Results

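Dio2, the gene of type II iodothyronine deiodinase, was represented by 1 of the 4696 clone spots on a spotted cDNA array, the spot whose title names that enzyme, and it was measured on all 32 arrays. Each array was hybridised with 33P-labelled cDNA from the prefrontal cortex of 2 adult mice, pooled at 2.5 µg of total RNA per mouse. The mice belonged to the WSP (Withdrawal Seizure-Prone) line, bred for severe ethanol withdrawal, or the WSR (Withdrawal Seizure-Resistant) line, bred for mild withdrawal, both from genetically heterogeneous HS/Ibg stock, in 2 independently bred populations per line (WSP-1, WSP-2, WSR-1 and WSR-2). Crossing treatment, line and sex gave 8 groups of 4 arrays. EtOH mice had 72 h of ethanol vapour and were taken 8 h into withdrawal, and air mice were kept in air chambers. Vapour was preceded by injected ethanol, at 1.5 g/kg in WSP-1, WSR-1 and WSR-2 and at a larger dose in WSP-2. All mice, air controls included, received pyrazole, an inhibitor of alcohol dehydrogenase, at 68.1 mg/kg. Every array in a group is a pool of other mice, with 2 pools per population in each group.

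Deiodinase 2 converts the prohormone thyroxine (T4) into the active hormone triiodothyronine (T3) by removing iodine from the outer ring. In brain it is known mainly from astrocytes and from tanycytes, the glia that line the third ventricle, and it supplies much of the T3 that binds nuclear receptors in neurons. The enzyme is a selenoprotein whose transcription is induced through cyclic AMP and whose protein is ubiquitinated and degraded when T4 is abundant.

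The promoter is shown because Dio2 is known to be induced by cyclic AMP through a response element there, and cAMP genes are described with the other pathway members. The 250 bases before the gene start, from RefSeq on GRCm38.p6, chr12:90739039-90739288, minus strand, are written 5′ to 3′ with a match to the palindromic motif TGACGTCA in capitals.
Dio2: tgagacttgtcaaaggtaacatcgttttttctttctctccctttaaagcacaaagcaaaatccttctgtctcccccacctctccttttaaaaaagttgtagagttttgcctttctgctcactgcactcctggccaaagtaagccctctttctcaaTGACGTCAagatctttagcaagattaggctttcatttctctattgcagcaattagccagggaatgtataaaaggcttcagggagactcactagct
The motif, searched on both strands, started 95 bases before the gene start. It was found in the same window of 1.55% of 32851 promoters in the table, and these letters were not in the windows of Dio1 or Dio3, the other deiodinase genes. No clone title named Dio1 or Dio3.

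The signal of the Dio2 clone exceeded the array's background on 32 of 32 arrays, at 4.63 to 21.3 times background. Its mean normalised level was 7.89 on the log2 scale. The log2 levels given here are signals corrected by normexp with an offset of 50 and quantile normalised across arrays. The offset sets a floor of 5.64 and compresses ratios. Dio2 was chosen by values of these same arrays, and the contrast that chose it is not recorded. Its levels and differences are therefore a description and carry no p-value. In pooled cortex, fewer cells of a type and less RNA per cell cannot be told apart.

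Dio2 was lower in WSP than in WSR mice, and the separation was clearest in females. In female WSP EtOH mice the 4 arrays, in the order WSP-1 pools then WSP-2 pools, stood at 7.76, 7.66, 7.11 and 7.13. Female WSP air mice stood at 7.51, 7.39, 7.14 and 7.10. The 4 female WSP-2 arrays were the lowest of all 32. Female WSR EtOH mice stood at 7.89, 8.21, 7.96 and 8.07, with WSR-1 pools first. Female WSR air mice stood at 8.04, 7.99, 8.16 and 8.32. All 8 female WSP arrays lay below all 8 female WSR arrays, which was the case for 6 of 4696 clones (0.128%). The pattern may have served to choose the gene, so nothing is read from that count.

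In males the lines overlapped. Male WSP EtOH mice stood at 8.10, 7.62, 8.04 and 7.92, and male WSP air mice at 7.85, 7.84, 8.23 and 8.07. Male WSR EtOH mice stood at 7.97, 8.01, 8.68 and 8.40, and male WSR air mice at 8.10, 8.01, 8.22 and 7.83. Of the 8 male WSP arrays, 7 exceeded the lowest male WSR array, and the highest male levels were those of WSR-2 EtOH pools.

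**Figure D1:**
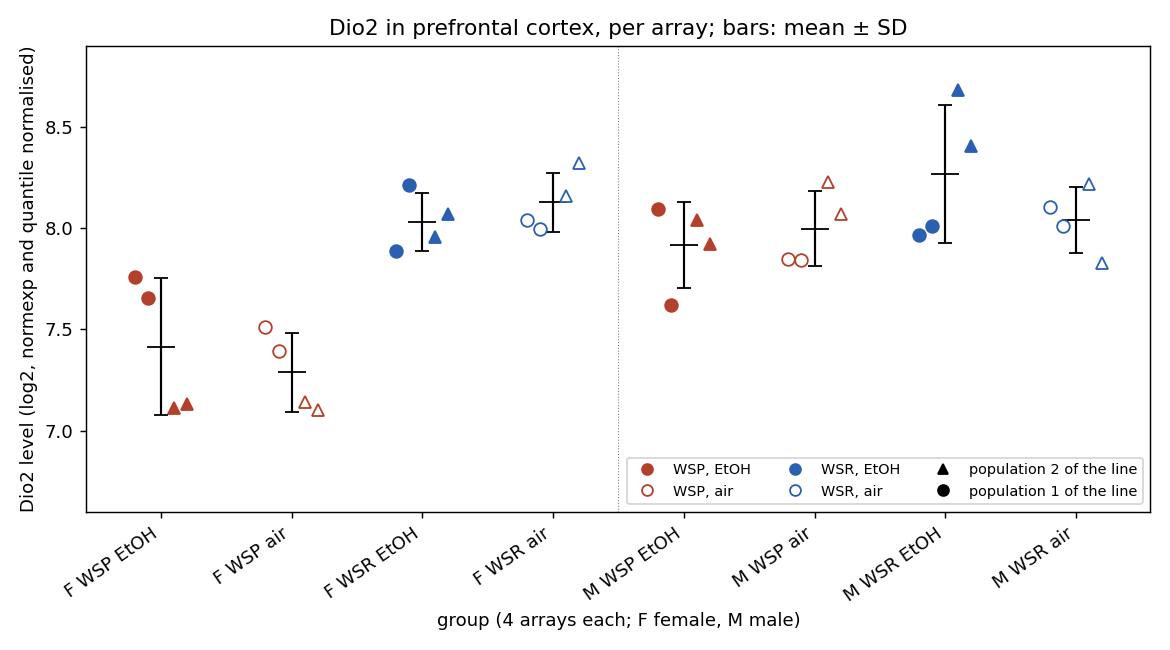
Normalised Dio2 level (log2) on each of 32 arrays in 8 groups, with red for WSP, blue for WSR, filled symbols for EtOH, open symbols for air, circles for population 1 and triangles for population 2 of a line, and bars at the mean ± SD of 4 arrays. The 8 female WSP arrays, at 7.10 to 7.76, lie below the 8 female WSR arrays, at 7.89 to 8.32, whereas the male groups overlap.

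Group means followed the same order. Female WSP EtOH mice averaged 7.42 ± 0.34 and female WSP air mice 7.29 ± 0.20 (SD, n = 4 each). Female WSR EtOH mice averaged 8.03 ± 0.14 and female WSR air mice 8.13 ± 0.15 (SD, n = 4 each). Both female WSP groups thus stood below every other group by more than their SDs. Male WSP EtOH mice averaged 7.92 ± 0.21, male WSP air mice 8.00 ± 0.19, male WSR EtOH mice 8.27 ± 0.34 and male WSR air mice 8.04 ± 0.17 (SD, n = 4 each). From lowest to highest the order was female WSP air, female WSP EtOH, male WSP EtOH, male WSP air, female WSR EtOH, male WSR air, female WSR air and male WSR EtOH. Apart from the step between female WSP EtOH and male WSP EtOH, neighbours in that order differed by no more than the larger of their SDs.

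Across both sexes and treatments, Dio2 averaged 7.65 ± 0.38 in WSP and 8.12 ± 0.22 in WSR (SD, n = 16 arrays each). The difference, WSP minus WSR, was -0.46 ± 0.08 (SE) in the limma fit over all clones, a ratio of 0.726. By size it ranked 3 among 4696 clones as reported, 6 with cyclic loess and 8 without background correction. The rank was 43 with median scaling, 56 with local centring and 230 with scaling on clones of like level. Of the 100 clones closest to Dio2 in mean level, 1 had a line difference as large, and their differences ran from -0.49 to 0.32 with a median of -0.06. Of these 100, 67 were below 0, against 2227 of all 4696 clones. Since Dio2 was chosen by values of these arrays, nothing is read from its rank or from these counts. With the smaller normexp offset of 16 the line difference was -0.55.

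Over both sexes the line difference was -0.48 in withdrawing and -0.44 in control mice, and its gap between the sexes within each depended on the scaling. In EtOH mice Dio2 averaged 7.67 ± 0.38 in WSP and 8.15 ± 0.27 in WSR, a difference of -0.48 ± 0.11 (SE). In air mice it averaged 7.64 ± 0.42 in WSP and 8.08 ± 0.15 in WSR, a difference of -0.44 ± 0.11 (SE, n = 8 arrays per line). In females it was -0.62 in EtOH mice and -0.84 in air mice, and in males -0.35 in EtOH mice and -0.04 in air mice, each ± 0.16 (SE, n = 4 arrays per line). In females the lines did not overlap in EtOH or in air mice. How many other clones did the same with 4 arrays per line was not counted, so nothing is read from it. In male air mice the difference was smaller than its SE, and all 4 WSP arrays exceeded the lowest WSR array. The male air value depended on the scaling, at -0.36 with median scaling and -0.30 with local centring, where the female air value was -0.49 and -0.38. In EtOH mice the difference was -0.64 in females and -0.54 in males with median scaling. With local centring it was -0.53 in female and -0.59 in male EtOH mice.

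Selection acted on populations, of which there were 2 per line. From lowest to highest, Dio2 averaged 7.59 ± 0.51 in WSP-2, 7.72 ± 0.22 in WSP-1, 8.03 ± 0.10 in WSR-1 and 8.20 ± 0.27 in WSR-2 (SD, n = 8 arrays each). Both WSP populations stood below both WSR populations. WSP-2 and WSP-1 differed by -0.12 ± 0.08 (SE), less than the SD of either, and the order of these 2 turned in the authors' deposited values (0.07) and as signal over background (0.18). WSR-2 and WSR-1 differed by 0.18 ± 0.08 (SE), less than the SD of WSR-2. The SD of WSP-2 arose between the sexes. Its 4 male arrays averaged 8.06 ± 0.13 and its 4 female arrays 7.12 ± 0.02 (SD), with no male array under 7.92 and no female array over 7.14. In WSP-1, males averaged 7.85 ± 0.19 and females 7.58 ± 0.16. The WSR populations showed no such gap: WSR-1 averaged 8.02 ± 0.06 in males and 8.03 ± 0.14 in females, and WSR-2 8.28 ± 0.36 in males and 8.13 ± 0.15 in females (SD, n = 4 each).

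The line difference within each sex depended on how the arrays were scaled. In males it was -0.20 ± 0.11 and in females -0.73 ± 0.11 (SE, 8 arrays per line). Without the male WSR EtOH array 2-1, the one with the highest Dio2 level, the male difference was -0.13. The line difference in males minus that in females was 0.53 ± 0.16 (SE). With each array scaled by its median instead, the difference was -0.45 in males and -0.56 in females. Centred on neighbouring spots of the same array, it was -0.44 in males and -0.45 in females. Scaled on the genomic DNA control spots, it was -0.40 in males and -0.58 in females. WSP stood below WSR in both sexes under every setting run. The gap between the sexes, in contrast, depended on the setting. It was 0.12 with median scaling, 0.01 with local centring, 0.18 with genomic DNA scaling, 0.11 with no scaling between arrays and 0.13 as signal over background. It was 0.45 with cyclic loess, 0.67 without background correction, 0.66 with the offset of 16, 0.43 in the authors' deposited table and 0.41 scaled on clones of like level.

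**Figure D2:**
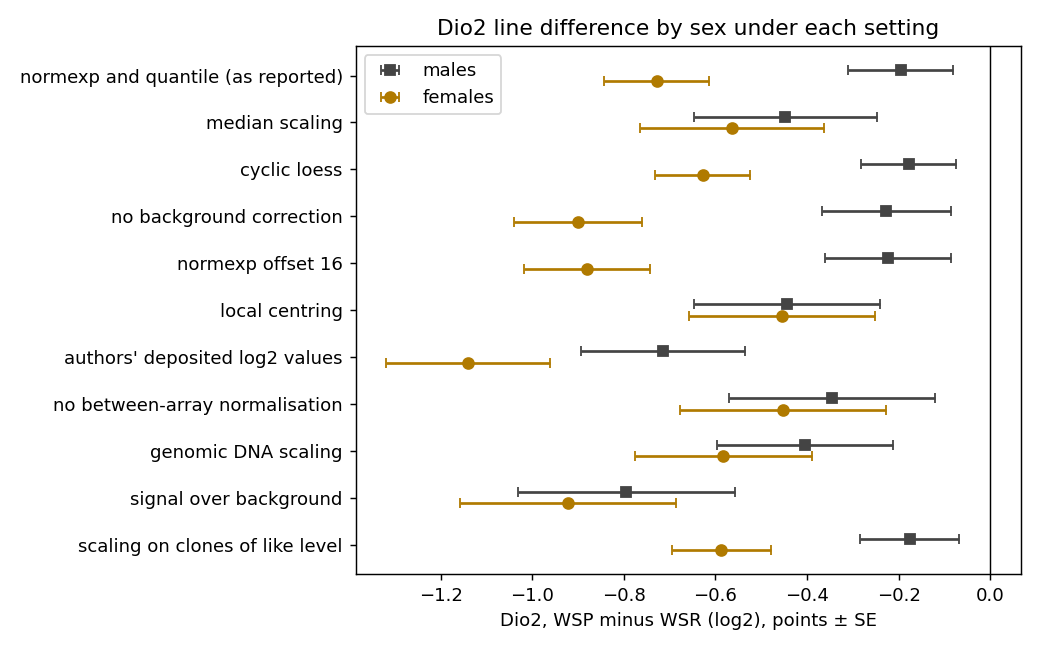
Dio2 difference, WSP minus WSR (log2, points ± SE), in males (squares) and females (circles) under the reported setting and 10 other treatments of the same arrays. All points lie left of 0, and the sexes differ by 0.53 as reported but by 0.12 with median scaling and 0.01 with local centring.

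The unscaled signals showed the same direction with more overlap. In female WSP mice the signal was 289.2, 191.4, 107.2 and 69.6 on EtOH arrays and 131.7, 177.2, 101.3 and 173.4 on air arrays. In female WSR mice it was 157.5, 197.2, 278.2 and 329.6 on EtOH arrays and 166.5, 165.3, 284.6 and 186.0 on air arrays. The lowest 4 of these signals were all from WSP, while the single brightest female WSP array exceeded all but 1 of the female WSR arrays. In male WSP mice the signal was 212.9, 162.6, 386.3 and 122.3 on EtOH arrays and 190.0, 151.1, 287.2 and 229.1 on air arrays. In male WSR mice it was 168.0, 368.7, 367.9 and 255.0 on EtOH arrays and 286.0, 218.3, 393.5 and 173.8 on air arrays. The mean signal was 186.4 ± 81.5 in WSP and 249.8 ± 82.2 in WSR (SD, n = 16 each).

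Background moved with line and sex. It averaged 25.0 ± 10.7 on WSP arrays and 18.0 ± 4.61 on WSR arrays, and 26.5 ± 8.53 on male arrays and 16.4 ± 5.94 on female arrays (SD, n = 16 each). As a ratio to background, Dio2 averaged 7.81 ± 2.23 in WSP and 14.3 ± 4.38 in WSR (SD, n = 16 each). On the log2 scale of that ratio the line difference was -0.86 ± 0.17 (SE), and it was -0.79 in males and -0.92 in females. In the authors' deposited table of log2 values, whose scaling and centring are unknown, it was -0.93. The part of background in the line difference as reported was not tested, and the line difference without any background correction was -0.56.

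**Figure D3:**
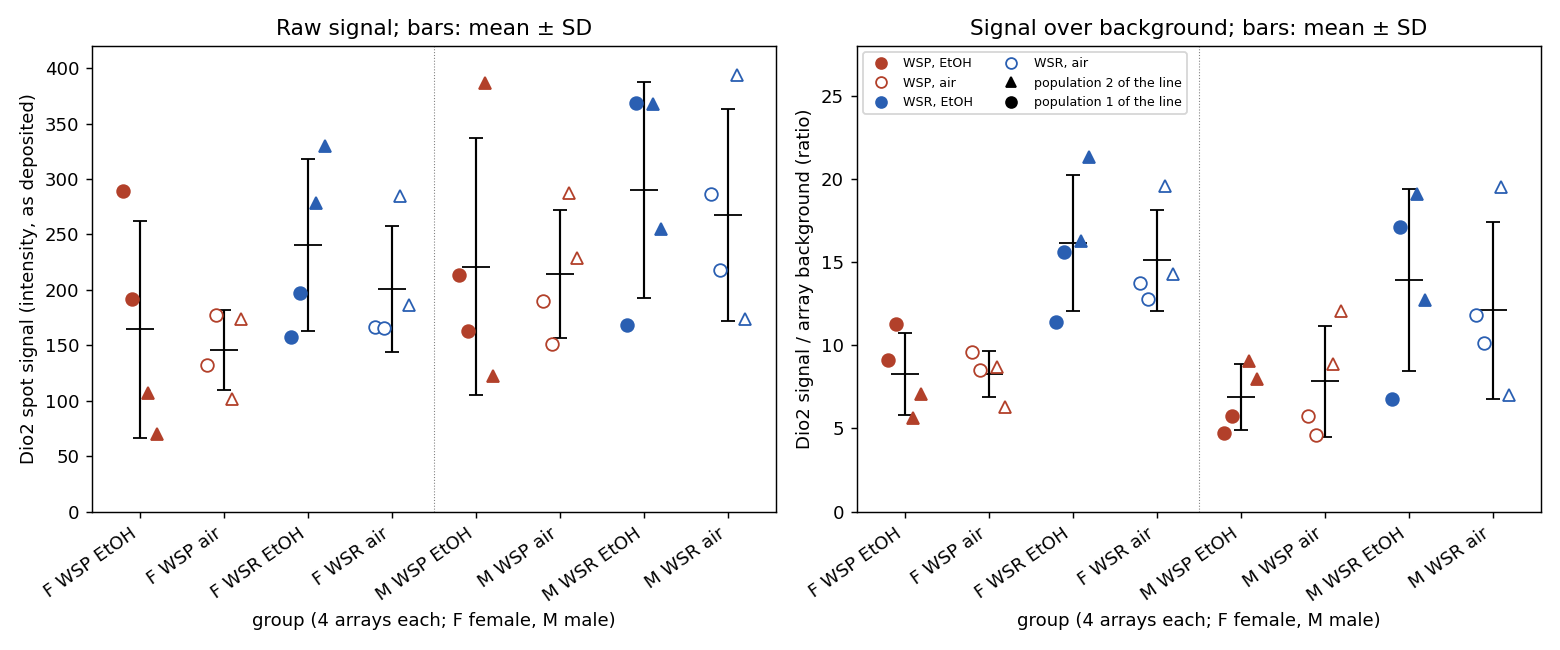
Dio2 spot signal as deposited (left, intensity) and divided by the array's background (right, ratio) on each of 32 arrays, with the same symbols as for the normalised levels and bars at the mean ± SD of 4 arrays. The groups overlap in raw signal, and the ratio averages 7.81 in WSP and 14.3 in WSR.

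The spot lay in the outermost column of its grid, column 30, row 3. Within 3 spots of it were 16 other clones. Their line differences ran from -0.32 to 0.12 with a median of -0.05, and 15 of them were below 0. Over all 4696 clones, 2227 were below 0 and the median was 0.0042. Why the neighbours leaned below 0 was not tested. The adjacent clones of creatine kinase, muscle, at -0.07, and of adenylate cyclase 7, at -0.05, were above background on 14 and 8 arrays. Centred on these neighbours in place of quantile normalisation, the Dio2 line difference was -0.45 ± 0.14 (SE). With median scaling it was -0.51 ± 0.14 (SE). Most of the neighbours averaged near the floor of 5.64, where the offset compresses differences.

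EtOH and air mice did not differ in Dio2 beyond the spread between arrays. Over all groups Dio2 averaged 7.91 ± 0.40 in EtOH mice and 7.86 ± 0.38 in air mice (SD, n = 16 each), a difference, EtOH minus air, of 0.04 ± 0.08 (SE). The SD between arrays within groups was 0.23. By size the difference ranked 2361 among 4696 clones. It was 0.02 ± 0.11 in WSP and 0.06 ± 0.11 in WSR, and the EtOH effect in WSP minus that in WSR was -0.04 ± 0.16 (SE). Within the 4 strata of sex and line it was 0.13 for WSP females, -0.10 for WSR females, -0.08 for WSP males and 0.23 for WSR males, each ± 0.16 (SE). None of these differences exceeded 1.5 times its SE. Their signs varied with the scaling: with median scaling they were 0.01 for WSP females, 0.16 for WSR females, -0.06 for WSP males and 0.11 for WSR males, and with local centring -0.05, 0.11, -0.18 and 0.11 in the same order. By population, EtOH minus air was 0.13 in WSP-1, -0.08 in WSP-2, which had the larger ethanol injection, -0.02 in WSR-1 and 0.15 in WSR-2, each ± 0.12 (SE). Under cyclic loess the sign of the overall difference turned, to -0.02, and under scaling on clones of like level it was -0.03.

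By sex, Dio2 averaged 8.06 ± 0.25 in males and 7.72 ± 0.43 in females (SD, n = 16 each). The difference, male minus female, was 0.34 ± 0.08 (SE) and ranked 26 among 4696 clones. The rank was 32 with cyclic loess and 426 with median scaling. It was 0.61 ± 0.11 in WSP and 0.07 ± 0.11 in WSR (SE), and the WSP value was 0.27 with median scaling and 0.22 with local centring. As a ratio to background, a setting that also leaves out the scaling between arrays, the difference was -0.28 over both lines, -0.21 in WSP and -0.34 in WSR. It was 0.42 with no background correction and 0.41 with the offset of 16. Background was higher on male arrays, and its part in the difference by sex was not tested.

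Of 125 genes of the deiodinase pathway looked for, 16 measured by a named clone are reported. None passed the limma test (Benjamini-Hochberg adjusted p under 0.05) between lines, at 0 of 16 with 0 also at an unadjusted p under 0.05, where 0.639% of all 4696 clones were called and 337 had an unadjusted p under 0.05. Of the 30 clones called between lines, 29 were lower in WSP and 1 was higher. Between EtOH and air, 0 of 16 passed and 1 had an unadjusted p under 0.05, where 0% of all clones were called and 353 had an unadjusted p under 0.05. Their median difference was 0.02 between lines and -0.0011 between treatments, against 0.0042 and 0.0027 over all clones. Of the 16 clones, 11 were above background on at least 16 arrays, and 3 on all of them.

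In thyroid hormone transport, the one measured gene was Ttr, transthyretin, which carries T4 in plasma and cerebrospinal fluid. It averaged 9.88 ± 0.27 in WSP and 9.84 ± 0.21 in WSR (SD, n = 16 each), a difference of 0.04 ± 0.07 (SE, limma adjusted p = 0.945). Scaled on clones of like level, which moved the median of all clones to 0.12, Ttr was called at 0.35 ± 0.08 (SE, limma adjusted p = 0.00208). No clone title named a thyroid hormone receptor. Trip11, found in human as a protein that binds a thyroid hormone receptor, differed by 0.01 between lines and by -0.03 between treatments, and was above background on 8 arrays.

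Of 5 genes known to respond to T3 in brain, none was called in either comparison. Itpr1, a calcium release channel, differed by -0.09 ± 0.05 between lines, and Camk4, a calcium-dependent kinase, by 0.06 ± 0.06 (SE). Homer1, a synaptic scaffold, differed by -0.09 ± 0.05 between treatments, and Tnc, the matrix protein tenascin C, by -0.06 ± 0.07 (SE). Dab1, an adaptor in reelin signalling, differed by 0.02 between lines and 0.03 between treatments.

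Among 4 genes that tag proteins with ubiquitin, Wsb1, the adaptor of a ligase that recognises deiodinase 2, differed by -0.09 ± 0.06 between lines and 0.07 ± 0.06 between treatments (SE). Rbx1, the RING subunit of such ligases, differed by -0.09 between lines and 0.11 between treatments. The conjugating enzymes Ube2j2 and Ube2g2 differed by 0.06 and -0.04 between lines. None of the 4 was called.

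None of 3 cAMP genes was called. Adcy7, an adenylate cyclase, differed by -0.05 between lines and 0.02 between treatments, and was above background on 8 arrays. Prkar1b, a regulatory subunit of protein kinase A, differed by 0.03 between lines and had the largest treatment difference of the 3, -0.16 ± 0.07 (SE, limma adjusted p = 0.656). Gnas, the stimulatory G protein subunit, was above background on 4 arrays.

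Of 2 selenoprotein genes, Selenop, which carries selenium to brain, differed by 0.18 ± 0.10 between lines and -0.07 between treatments, and Selenon by 0.04 between lines and 0.01 between treatments. Neither was called. Dio2's line difference lay outside the range of the 16 genes, -0.09 to 0.18, and its treatment difference lay within theirs, -0.16 to 0.11. Dio2 was chosen by values of these arrays, so nothing is read from that. Ttr and Rbx1 averaged 9.86 and 9.80. The others averaged 5.78 (Gnas) to 6.39 (Selenon), nearer than Dio2 to the floor of 5.64, where the offset compresses differences.

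**Figure D4:**
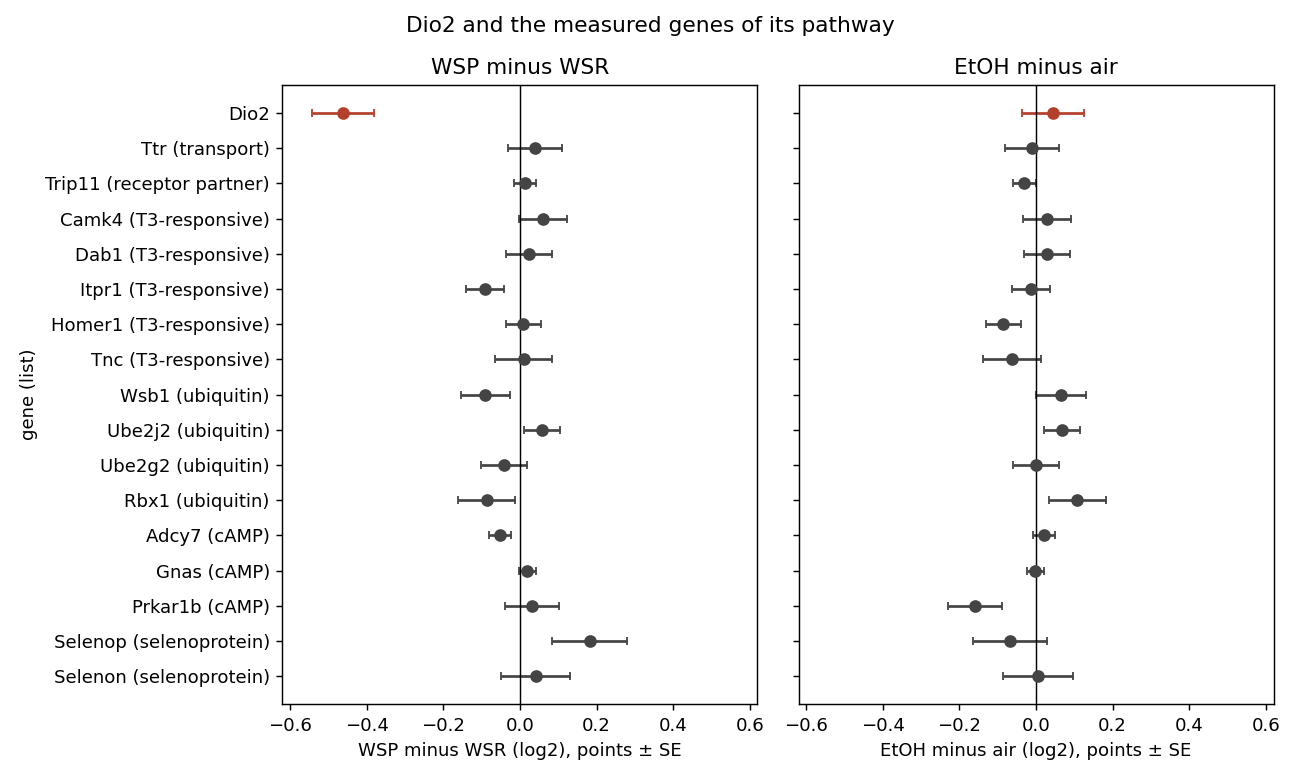
Differences (log2, points ± SE) of Dio2 and 16 measured pathway genes, WSP minus WSR on the left and EtOH minus air on the right, each from 32 arrays. Dio2, chosen by values of these arrays, stands at -0.46 in the line comparison and at 0.04 in the treatment comparison. The other genes, most of them near the floor of the scale, run from -0.09 to 0.18 between lines.

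Markers of cell types that could carry the signal were few on the array. Of 94 markers looked for, 21 measured ones are reported, Ttr among them, and 0 were called between lines or between treatments, with 0 and 3 at an unadjusted p under 0.05. Over all 4696 clones 30 were called between lines and 0 between treatments, with 337 and 353 at an unadjusted p under 0.05, so few calls among 21 clones say nothing particular to the markers. The 6 measured astrocyte markers summed to 646 to 1075 in WSP and 588 to 970 in WSR on the linear normalised scale, with a median of 821 in WSP and 853 in WSR. By mean, 3 of the 6 were higher in WSP and 3 were lower. Glul, glutamine synthetase, differed by 0.06 and Ndrg2 by 0.09 between lines, and both were above background on all arrays. Clu differed by 0.06, Mfge8 by -0.06, Fgfr3 by -0.07 and Aldoc by -0.03 between lines. The astrocyte marker Fgfr3 had the largest treatment difference of the list, 0.24 ± 0.11 (SE, limma adjusted p = 0.659), and was above background on 9 arrays. Vim, the one measured tanycyte marker, differed by -0.06 between lines and was above background on 12 arrays. The neuronal markers Thy1 and Ina were above background on 26 and 32 arrays and differed by 0.08 and -0.11 between lines.

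The summed levels of the other marker lists overlapped between lines as well. Each gene in a sum, the astrocyte sum included, brings about the offset of 50, and bright genes weigh most. Among those were Glul, Hba-a1 and Ttr, averaging 8.95, 10.6 and 9.86 on the log2 scale. Sums of genes near the floor could hardly differ, so nothing about cell content is read from the overlap. Neuronal markers summed to 127 to 159 in WSP and 132 to 166 in WSR. The oligodendrocyte marker Enpp2 stood at 690 to 1161 in WSP and 619 to 1143 in WSR. Microglial markers summed to 173 to 453 in WSP and 164 to 210 in WSR, and the vessel and meninges list to 235 to 493 in WSP and 240 to 313 in WSR. In both lists the highest sums were from WSP. The medians were 193 in WSP and 196 in WSR for microglial markers, and 264 and 257 for the vessel and meninges list. The part of these lists in the Dio2 difference was not tested. Choroid plexus and blood markers summed to 1973 to 3074 in WSP and 2257 to 2915 in WSR, and Dlx5, the one measured gene of neighbouring regions, was above background on 10 arrays.

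The clones whose pattern was most like Dio2 were sought among 696 with 1 gene title that were above background on at least 16 of the 32 arrays. Over those arrays, which share scaling, background and group structure, Pearson's r with Dio2 had a median of -0.00057 and exceeded 0.5 for 26 clones. The highest were Golgi SNARE GS15 (r = 0.80, or 0.73 after the 8 group means were removed), enhancer of polycomb homolog 1 (0.79, or 0.51) and origin of replication 3 homolog (0.76, or 0.69). Next came hydroxysteroid 17-beta dehydrogenase 1 (0.73, or 0.30) and RAB11a (0.71, or 0.58). All 5 were lower in WSP by mean, with line differences of -0.14 to -0.37. They were picked for likeness to Dio2, itself lower in WSP, so nothing is read from that direction. The likeness of the dehydrogenase rested more on the group means than that of the others, since its r fell most when they were removed.

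The 5 clones with the lowest r were phospholipase A2, group IB (-0.55), growth factor receptor bound protein 2 (-0.54), glutamine synthetase (-0.54), molybdenum cofactor synthesis 2 (-0.52) and PALS1 (-0.52). After the group means were removed, r was -0.50 for the phospholipase and -0.36 for growth factor receptor bound protein 2. It was -0.19 for molybdenum cofactor synthesis 2 and for PALS1. The phospholipase, growth factor receptor bound protein 2 and molybdenum cofactor synthesis 2 averaged 5.99, 5.96 and 5.93, near the floor of 5.64. For glutamine synthetase, the astrocyte enzyme also listed among the markers, r was -0.65 after the group means were removed, so it opposed Dio2 among arrays of the same group. Its own line difference, 0.06 ± 0.08 (SE), was within error.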

How the data were processed

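The deposited array files give, per the file headers, the intensity of each spot (Signal) with a single background intensity per array. Dim spots have a Signal near or below that background, so it was not subtracted. The deposited series table holds log2 values, with a rank correlation of 1 with Signal on every array, column medians of 7.39 to 8.58 and 10.9% to 47.3% of cells blank. Its direction is that of Signal, and its scaling and centring are unknown. No source used here names the array maker or the imager.

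Signals of 5355 spots were corrected by normexp (offset 50), 4696 clones were kept (192 genomic DNA spots and 467 without identity were left out), and log2 values were quantile normalised. Between 51.1% and 88.7% of clones were above background per array, and no 2 arrays were identical. limma 3.58.1 in R 4.3.3 was fitted to 8 group means over 32 arrays (eBayes with trend, 24 residual degrees of freedom), 2-sided, Benjamini-Hochberg over all clones, threshold 0.05. Population differences used 16 means of 2 arrays. SE values are limma's moderated ones, and p-values measure the spread between pools of 2 mice within groups. Each group holds pools of both populations of a line. Selection acted on populations, 2 per line, so SE values and calls between lines do not take the population as the replicate. The number of arrays limits the precision, and between lines so does the number of populations. The fit was tested on simulated data.

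The gene, its lists and the alternatives were chosen with earlier results of these data known. Genes were named from clone titles by hand, and 3 (Trip11, Prkar1b, Selenon) through an accession that RefSeq lists as a synonym. Some list genes are not reported here. For a gene with several spots the brightest was taken. Pathway genes named with values were the transport and receptor genes and, per list, the 2 with the largest difference in each comparison, other members being given by range or beside them. Clones most like Dio2 were the 5 highest and 5 lowest r under the filter stated.

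The labels tie same-numbered arrays of a line to 1 population, so population was tried as a block. The difference between populations in EtOH and in air mice correlated over clones at -0.08 and 0.21 in female WSP and WSR, and at -0.02 and -0.0030 in male WSP and WSR. Other background corrections, scalings, the deposited table, a filter on dim spots and leaving out each array were tried.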

Additional observations from a re-analysis of the deposited data

Results flagged for a closer look

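The difference between the 2 WSP populations ran in opposite directions in the sexes. Relative to the mean of the WSP-1 arrays of the same sex and treatment, the 4 male WSP-2 arrays were all higher, by 0.06 to 0.38 on the log2 scale, and the 4 female WSP-2 arrays all lay below it, at -0.59 to -0.31. WSP-2 minus WSP-1 was 0.21 ± 0.12 in males and -0.46 ± 0.12 in females (SE), and the difference in males minus that in females was 0.67. The male value rested on single arrays, at 0.09 without the male WSP EtOH array 1-2 and 0.33 without the male WSP EtOH array 1-1. The difference between the sexes kept its sign in 10 of 10 other settings, at 0.41 to 1.33. This difference was not tested, since Dio2 was chosen with these data known. Of 27 comparisons of this kind, it was the 1 in which all arrays of the groups moved in opposite directions. None of the 8 groups of 4 arrays held a Dio2 value far from the others.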

How the results depend on the processing

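The Dio2 line difference, -0.46, kept its direction in 12 of 12 other settings, at -0.93 to -0.38, and in all 32 fits without 1 array, at -0.49 to -0.43. The settings with population as a block could not move it, since the groups are balanced, and bear only on its SE. The line difference moved by more than the within-group SD with the authors' deposited values (-0.93) and as signal over background (-0.86). Male minus female (0.34) reversed as signal over background, to -0.28, to -0.21 within WSP and, against 0.07 as reported, to -0.34 within WSR. WSP-2 minus WSP-1 (-0.12) moved to 0.18 there and was 0.07 with the deposited values. The causes were not tested. Without 1 array, EtOH minus air ran from 0.01 to 0.07, the EtOH effect in WSP minus in WSR from -0.10 to 0.03, male minus female from 0.30 to 0.37, WSP-2 minus WSP-1 from -0.18 to -0.06, and WSR-2 minus WSR-1 from 0.13 to 0.23.

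With population as a replicate block, the line difference was -0.46 ± 0.08, EtOH minus air 0.04 ± 0.08 and male minus female 0.34 ± 0.08 (SE). With that block 0 list genes were called in either comparison, so it changed no call among the list genes. With population as a random block, the line difference was -0.46 ± 0.08 (SE). The correlation used, 0.0070, was 1 value for all clones and not that of Dio2. This SE therefore does not measure the spread of Dio2 between populations. List genes called between lines numbered 0, except 1 (Ttr) with scaling on clones of like level, an alternative chosen after seeing the data, as were no scaling between arrays, genomic DNA scaling and signal over background. The median of all clones moved to 0.12 with scaling on clones of like level and to 0.10 with no scaling between arrays. Clones called between lines numbered 30 as reported, 0 with median scaling, 16 with cyclic loess, 5 with local centring, 211 of 2170 tested in the deposited values, 3 with no scaling between arrays, 2 with genomic DNA scaling, 6 as signal over background, 349 with scaling on clones of like level, and 19 to 42 without 1 array, with 19 reached without male WSP air array 1-2. With median scaling 0 were called by limma, so the share of clones called between lines rests on the scaling.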
